A study of Rattus norvegicus with 4 samples.

Results

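The CXC chemokines of cultured rat aortic smooth muscle cells were followed over the 4 arrays of a study of interleukin-1b (IL-1b) and PDGF-DD. The 10 genes were Cxcl1, Cxcl2, Cxcl3, Cxcl6, Cxcl9, Cxcl10, Cxcl11, Cxcl12, Cxcl13 and Cxcl16, chosen by symbol from the 14218 genes named on the array. They were read by the 17 probe sets, of 31099, that the platform annotation assigns to exactly 1 of these symbols. The cells, of the Sprague-Dawley strain, had 3 days of growth in DMEM/F12 with serum, until confluent, and then 3 days in serum-free medium before a 24 h treatment. One culture received IL-1b, an inflammatory cytokine, at 2.5 ng/mL, and its control received acetic acid at 10 mM with 0.1% albumin (bovine, BSA). Another received PDGF-DD, a platelet-derived growth factor, at 30 ng/mL, and its control received a vehicle of 0.01% BSA. Each group was 1 sample on 1 array, and therefore no difference between them could be tested or checked in a replicate. How many animals or cell isolates the cultures came from is not given in the sources used here. In such bulk samples fewer cells that make an RNA and less of it per cell cannot be told apart.

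CXC chemokines are small secreted proteins that direct leukocyte migration through G protein-coupled receptors, and are named for a residue that separates their first pair of cysteines. Those with the residues ELR before the CXC motif (here Cxcl1, Cxcl2, Cxcl3 and Cxcl6) attract neutrophils through Cxcr2. Cxcl9, Cxcl10 and Cxcl11 lack ELR, are typically induced by interferons, and attract activated T cells through Cxcr3. Cxcl12 acts through Cxcr4 and Ackr3 and is made constitutively by many stromal cells. Cxcl13 attracts B cells through Cxcr5, and Cxcl16, made as a transmembrane protein, binds Cxcr6 and also takes up oxidised lipoprotein. The promoters of the ELR chemokines are classical targets of NF-kappaB, the transcription factor family that IL-1 receptors activate.

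In the GRCr8 gene order, 8 of the members lie on chromosome 14. Cxcl11, Cxcl10 and Cxcl9 are direct neighbours there, and so are Cxcl2 and Cxcl1; Cxcl3 lies 1 gene model further and is separated from Cxcl6 by Pf4 and Ppbp. Cxcl12 lies on chromosome 4 and Cxcl16 on chromosome 10. RefSeq promoter sequences of GRCr8 matched 9 of the 10 members, and were not matched for Cxcl3. The 250 bases before each gene's start were searched on both strands for the NF-kappaB consensus, and 5 of the 9 held it (Cxcl1, Cxcl2, Cxcl6, Cxcl10 and Cxcl11), against 6.33% of all 33465 promoters of the same length. Overlapping matches were merged into 1 run of capitals. The sequences below show that run, in capitals, for the ELR members with a promoter, for Cxcl10 and Cxcl11, which share it, and for Cxcl13 and Cxcl16, in which these letters were not found. Each is written 5′ to 3′ on the gene's strand and ends at the last base before the gene's start, over 250 bases for Cxcl10 and 150 bases for the others.
Cxcl1, chr14:17479322-17479471, minus strand: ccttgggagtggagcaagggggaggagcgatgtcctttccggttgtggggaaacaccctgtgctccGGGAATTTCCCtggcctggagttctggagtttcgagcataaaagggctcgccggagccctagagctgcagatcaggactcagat
Cxcl2, chr14:17467256-17467405, minus strand: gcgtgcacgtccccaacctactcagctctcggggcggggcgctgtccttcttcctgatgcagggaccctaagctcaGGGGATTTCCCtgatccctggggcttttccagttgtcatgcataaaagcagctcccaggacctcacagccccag
Cxcl6, chr14:17596418-17596567, minus strand: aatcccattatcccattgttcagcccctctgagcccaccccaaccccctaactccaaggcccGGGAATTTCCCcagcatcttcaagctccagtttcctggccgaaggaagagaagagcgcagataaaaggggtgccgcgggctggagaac
Cxcl10, chr14:15988816-15989065, plus strand: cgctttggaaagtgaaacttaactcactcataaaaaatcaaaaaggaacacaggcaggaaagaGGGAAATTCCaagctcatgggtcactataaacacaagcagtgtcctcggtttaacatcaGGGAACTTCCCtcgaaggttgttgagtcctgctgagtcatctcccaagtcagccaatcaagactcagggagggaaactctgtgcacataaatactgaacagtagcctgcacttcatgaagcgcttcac
Cxcl11, chr14:15973578-15973727, plus strand: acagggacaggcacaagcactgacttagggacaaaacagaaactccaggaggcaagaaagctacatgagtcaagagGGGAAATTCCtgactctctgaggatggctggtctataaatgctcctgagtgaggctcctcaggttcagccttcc
Cxcl13, chr14:13917921-13918070, minus strand: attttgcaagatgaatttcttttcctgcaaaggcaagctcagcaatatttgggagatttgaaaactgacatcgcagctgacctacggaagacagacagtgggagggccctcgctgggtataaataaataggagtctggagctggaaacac
Cxcl16, chr10:55669951-55670100, minus strand: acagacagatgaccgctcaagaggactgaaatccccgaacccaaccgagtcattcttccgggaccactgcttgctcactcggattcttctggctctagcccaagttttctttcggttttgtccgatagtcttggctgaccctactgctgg

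The match began 84 bases before the start of Cxcl1, 74 before that of Cxcl2 and 88 before that of Cxcl6, and read GGGAATTTCC in Cxcl1 and Cxcl6 and GGGGATTTCC in Cxcl2. In Cxcl11 it began 74 bases before the start and read GGGAAATTCC. Cxcl10 held 2 separate runs, which began 187 and 128 bases before its start. Cxcl10 was also the only 1 of the 9 with GAAA, any 2 bases and GAAA again, the core of an interferon-stimulated response element (243 bases before the start; 3.41% of all promoters held it). The AP-1 motif TGANTCA was found in Cxcl10 and Cxcl11 (6.34% of all promoters). The TATA box TATAAA was found in Cxcl10, Cxcl11 and Cxcl13 (12.9% of all promoters). Each match is a string of letters and no measure of binding.

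**Figure D1:**
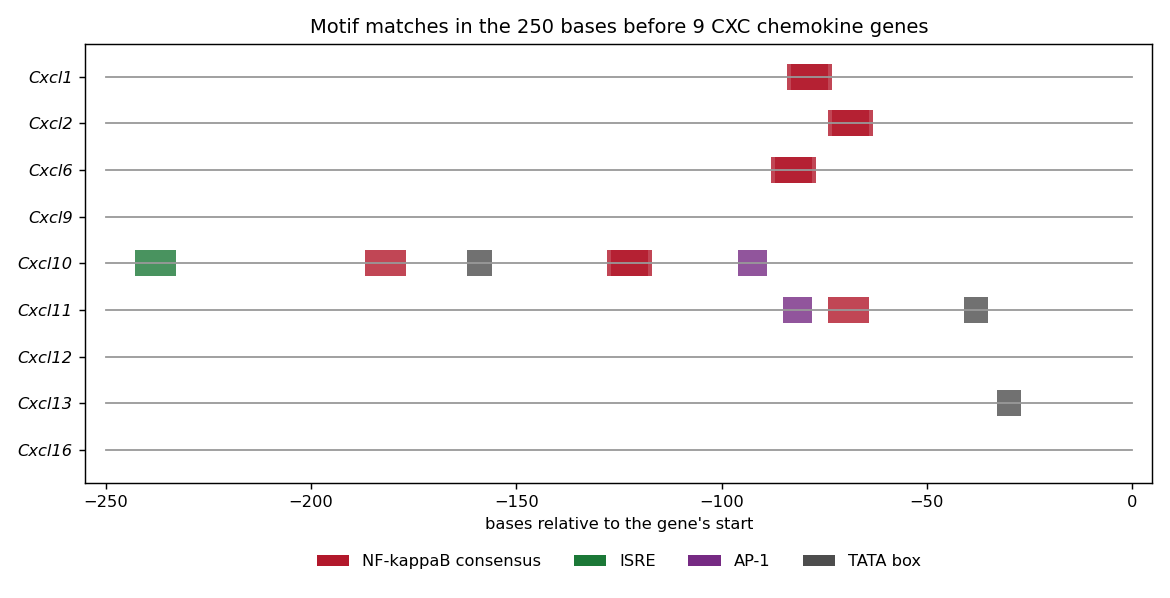
Positions of motif matches (coloured blocks) in the 250 bases before the start of 9 CXC chemokine genes, 1 gene per line, with distance from the gene's start on the horizontal axis in bases. The NF-kappaB matches of Cxcl1, Cxcl2 and Cxcl6 begin between 88 and 74 bases before the start, while Cxcl9, Cxcl12, Cxcl13 and Cxcl16 hold none.

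Values are MAS5 intensities, a brightness in arbitrary units on a linear scale, brought to a common trimmed mean. Intensities under a floor of 28.1, the 40th percentile of all values, were set to the floor for ratios, and are printed as measured. A difference was called when it was at least 2-fold, and a fold against an array at the floor is a lower bound. All 6 smooth muscle markers examined (Acta2, Myh11, Tagln, Cnn1, Smtn and Lmod1) were above the floor on all 4 arrays. Of 8 leukocyte and macrophage markers 5 were at or under the floor on every array (Ptprc, Cd68, Itgam, Csf1r and Tyrobp), as were all 5 lymphocyte markers and 4 of 5 endothelial markers. The ratio of 3' to 5' beta-actin signal, a sign of RNA quality, was 2.05 with IL-1b, 1.58 with its vehicle, 1.37 with PDGF-DD and 1.26 with its vehicle. For Gapdh this ratio was 1.27, 1.22, 1.07 and 1.11 on the same arrays in that order.

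With IL-1b all 4 ELR chemokines were higher than with its vehicle, and 3 of them (Cxcl2, Cxcl3 and Cxcl6) were at or under the floor in that vehicle. Cxcl2, known in rat as Mip-2 (probe set 1368760_at), had an intensity of 3657 with IL-1b, 12.9 with its vehicle, 17.1 with PDGF-DD and 17.3 with the PDGF-DD vehicle. It was thus above the floor on the IL-1b array alone, where it was at least 130-fold higher than on each of the other arrays. Cxcl6 (1387648_at) stood at 3901 with IL-1b, 21.2 with its vehicle, 23.8 with PDGF-DD and 42.9 with the PDGF-DD vehicle. This gene was at least 139-fold higher with IL-1b than with its own vehicle, and 90.9-fold higher than with the PDGF-DD vehicle. Among 10679 genes compared between IL-1b and its vehicle, Cxcl6 and Cxcl2 ranked 4 and 5 from the highest log2 ratio (7.12 and 7.03). Both ratios are bounds against the floor, and both genes entered this comparison through the IL-1b array alone. Their order depends on the floor: without one the log2 ratios were 8.14 for Cxcl2 and 7.52 for Cxcl6.

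Cxcl1, called CINC-1 or Gro1 in rat (1387316_at), differed from Cxcl2 and Cxcl6 in that it was well above the floor on every array. Its intensity was 9798 with IL-1b, 590.2 with the IL-1b vehicle, 4214 with PDGF-DD and 7358 with the PDGF-DD vehicle. The IL-1b vehicle array is the low one, and the other three lie within 2.33-fold of each other. Against its own vehicle Cxcl1 was 16.6-fold higher with IL-1b, with a log2 ratio of 4.05. Set against the PDGF-DD vehicle it was 1.33-fold higher (log2 0.41).

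Cxcl3, known as Cinc-2, had 5 probe sets. The one that stood for the gene (1370634_x_at) read 1483 with IL-1b, 5.86 with its vehicle, 90.8 with PDGF-DD and 76.1 with the PDGF-DD vehicle. Cxcl3 was at least 52.8-fold higher with IL-1b than with its own vehicle and 19.5-fold higher than with the PDGF-DD vehicle. Probe sets 1370633_at and 1388032_a_at gave similar bounds of at least 56.9-fold and at least 42.8-fold. Dimmer ones, 1388033_at and 1393182_at, read 142.6 and 67.0 with IL-1b and under the floor on the other arrays, which bounds their differences at 5.08-fold and 2.38-fold. All 5 were highest on the IL-1b array. The suffix x in a probe set name marks probes that may also bind related transcripts, and the ELR chemokines are close paralogs, so part of the Cxcl3 signal may come from related transcripts, which was not tested.

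**Figure D2:**
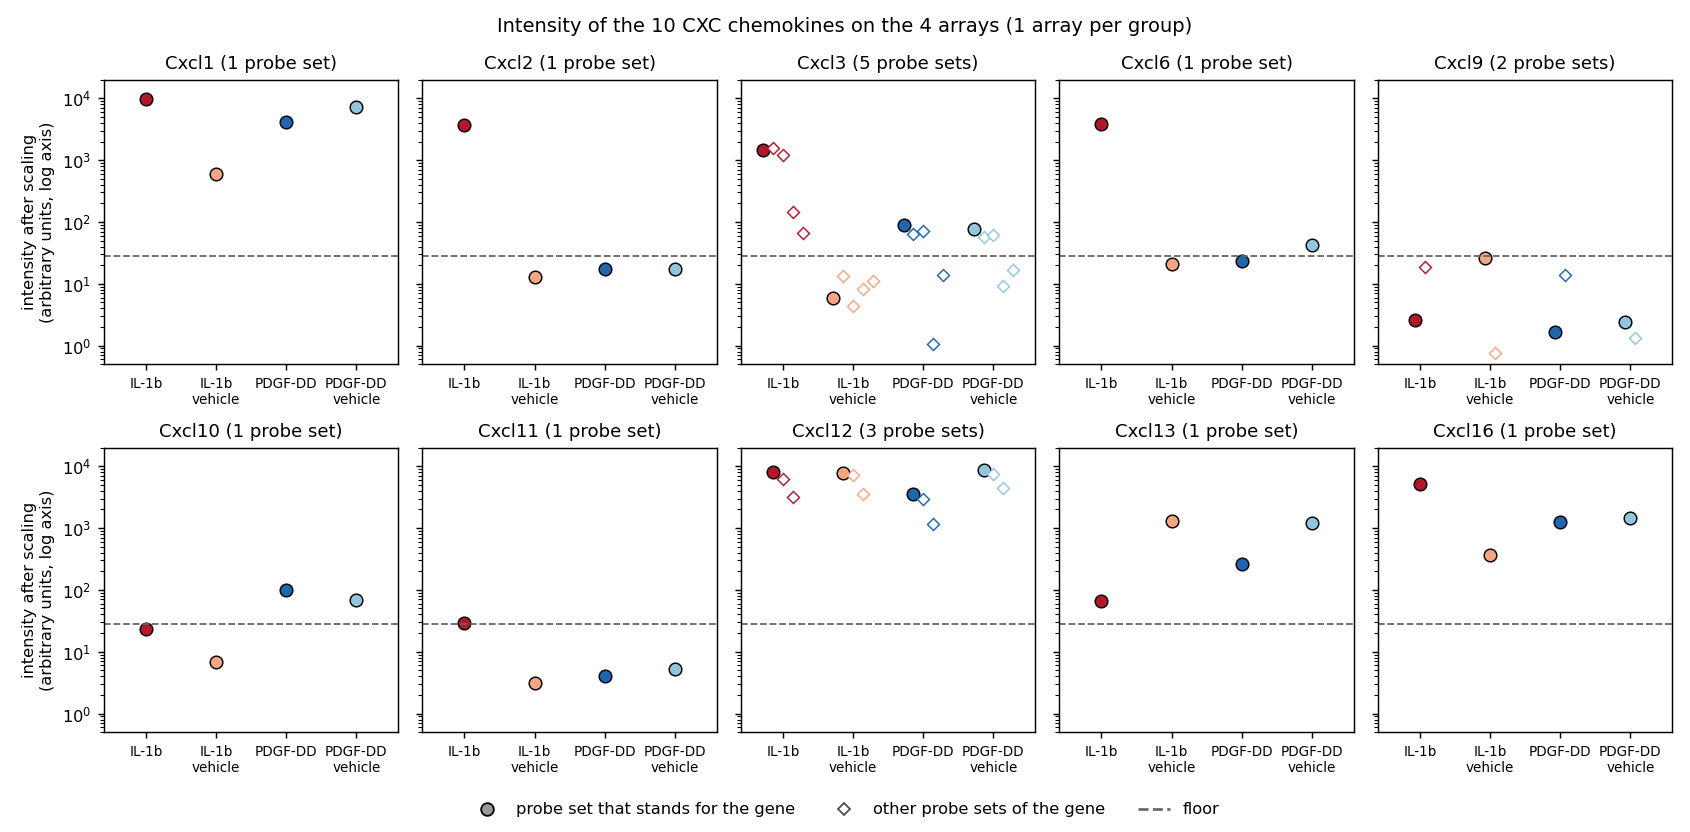
Intensity after scaling (vertical axis, arbitrary units, log scale) of every probe set of the 10 genes on the IL-1b, IL-1b vehicle, PDGF-DD and PDGF-DD vehicle arrays; filled circles are the probe set that stands for the gene, open diamonds its other probe sets, and the dashed line is the floor of 28.1. Cxcl2 is above the floor on the IL-1b array alone, Cxcl1 and Cxcl16 are lowest on the IL-1b vehicle array, and Cxcl13 is lower on both factor arrays than on both vehicle arrays.

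The Cxcr3 ligands were at or near the floor on the IL-1b array. Cxcl9, which the annotation gives 2 probe sets, did not pass the floor on any array and read at most 26.0. The probe set of Cxcl11 (1379365_at) read 28.7 with IL-1b, next to the floor, and 3.06, 4.07 and 5.19 with the IL-1b vehicle, PDGF-DD and the PDGF-DD vehicle. Cxcl10 (1387969_at) read 23.4 with IL-1b and 6.85 with its vehicle, both under the floor, but 100.1 with PDGF-DD and 68.1 with the PDGF-DD vehicle. On the PDGF-DD array it was 1.47-fold higher than with the vehicle, short of the 2-fold rule. The intensities of Cxcl10 and Cxcl11, whose NF-kappaB matches are printed above, were thus not clear of the floor with IL-1b.

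Cxcl12 differed little between IL-1b and vehicle and was lower with PDGF-DD. Its probe set 1388583_at read 8192 with IL-1b and 7844 with the IL-1b vehicle, and 3613 with PDGF-DD and 8798 with the PDGF-DD vehicle. The PDGF-DD array is the low one, and the other three lie within 1.12-fold. By this probe set Cxcl12 was 2.44-fold lower with PDGF-DD than with its vehicle (log2 ratio -1.28) and 2.17-fold lower than with the IL-1b vehicle. The other probe sets, 1369633_at and 1387655_at, put it 2.59-fold and 3.75-fold lower with PDGF-DD than with its vehicle. With IL-1b, the log2 ratios of the 3 probe sets to its vehicle were 0.06, -0.23 and -0.20.

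Cxcl13, the B cell attractant, was lower with both factors. Its probe set (1398390_at) read 65.1 with IL-1b and 1325 with the IL-1b vehicle, and 267.0 with PDGF-DD and 1218 with the PDGF-DD vehicle. Both factor arrays lay below both vehicle arrays, which were 1.09-fold apart. Cxcl13 was 20.3-fold lower with IL-1b than with its vehicle and 18.7-fold lower than with the PDGF-DD vehicle, where its log2 ratio of -4.22 was the lowest of 10522 genes compared. With PDGF-DD the gene was 4.56-fold lower than with its own vehicle and 4.96-fold lower than with the IL-1b vehicle.

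Cxcl16 (1372064_at) was higher with IL-1b, at 5112, than with the IL-1b vehicle, at 363.5, and read 1271 with PDGF-DD and 1461 with the PDGF-DD vehicle. IL-1b stood highest and its vehicle lowest, with the PDGF-DD pair 1.15-fold apart between them. The gene was 14.1-fold higher with IL-1b than with its own vehicle and 3.50-fold higher than with the PDGF-DD vehicle.

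Counted over the family, IL-1b against its vehicle gave 5 members at least 2-fold higher (Cxcl1, Cxcl2, Cxcl3, Cxcl6 and Cxcl16), where 6.15% of all 10679 genes compared were, and 1 member at least 2-fold lower (Cxcl13), where 5.42% were. Cxcl12 was within 2-fold, the ratio of Cxcl11, at least 1.02-fold higher, is only a bound, and Cxcl9 and Cxcl10 were not above the floor on either array. The median log2 ratio of the 8 compared members was 3.93, beside 0.02 over all genes compared. Cxcl2, Cxcl3, Cxcl6 and Cxcl11 entered this comparison through the IL-1b array alone and so could only be higher there. With the PDGF-DD vehicle in place of its own, 4 members were at least 2-fold higher (Cxcl2, Cxcl3, Cxcl6 and Cxcl16; 5.44% of all genes) and 2 lower (Cxcl10 and Cxcl13; 4.97%), and the median over 9 members was 0.41, beside 0.07 over all genes. Cxcl2 and Cxcl11 entered it through the IL-1b array alone and Cxcl10 through the vehicle alone. Cxcl1 is the member that the change of vehicle took out of the higher group. Both comparisons share the IL-1b array.

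**Figure D3:**
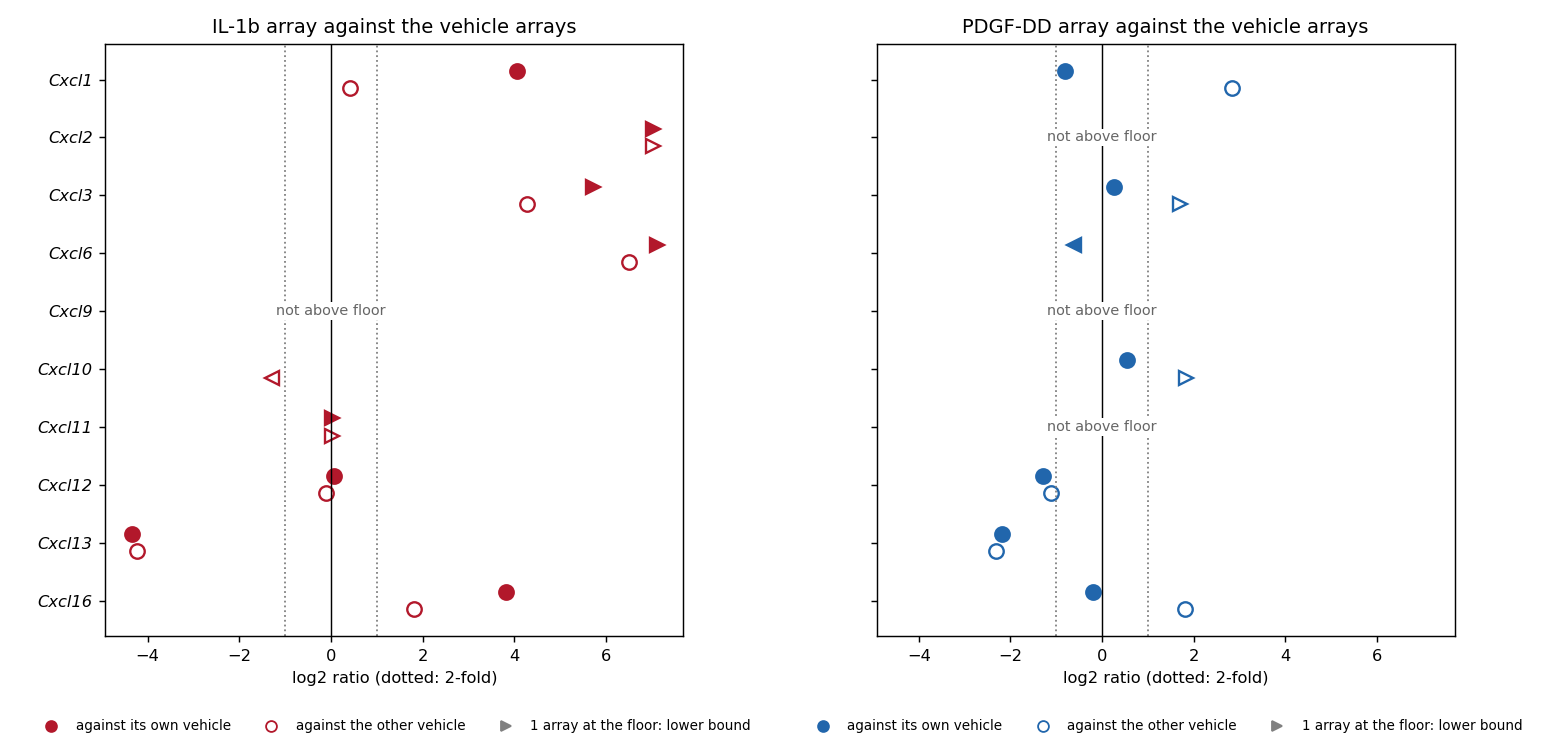
Log2 ratio of each CXC chemokine on the IL-1b array (left) and the PDGF-DD array (right) against the array's own vehicle (filled) and against the other vehicle (open), with 1 probe set per gene; triangles are lower bounds where 1 of the arrays is at the floor, and dotted lines mark 2-fold. Cxcl2, Cxcl3, Cxcl6, Cxcl13 and Cxcl16 keep their side of the 2-fold line with IL-1b against both vehicles, while Cxcl1 moves to 0.41 against the PDGF-DD vehicle.

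PDGF-DD against its vehicle gave 0 members at least 2-fold higher, where 4.24% of all 10142 genes compared were, and 2 members lower (Cxcl12 and Cxcl13), where 4.67% were. The log2 ratios of Cxcl1, Cxcl3, Cxcl10 and Cxcl16 were -0.80, 0.25, 0.55 and -0.20, all within 2-fold. Cxcl6, at the floor with PDGF-DD, could only be lower, and was so by at least 1.53-fold. Cxcl2, Cxcl9 and Cxcl11 were not above the floor on either array. The median of the 7 compared members was -0.61, which is the bound of Cxcl6, beside 0.01 over all genes. Against the IL-1b vehicle the same array gave 4 members higher (Cxcl1, Cxcl3, Cxcl10 and Cxcl16; 9.64% of 10389 genes) and the same 2 lower (10.3%), with Cxcl3 and Cxcl10 compared through the PDGF-DD array alone. The direction of Cxcl1 and Cxcl16 turned with the vehicle: relative to that of IL-1b, their log2 ratios were 2.84 and 1.81.

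Cell type markers differed between the same arrays. All 6 smooth muscle markers were at least 2-fold lower with IL-1b than with its vehicle (5.42% of all genes), and likewise with PDGF-DD (4.67%). Against the PDGF-DD vehicle 4 of 6 were at least 2-fold lower with IL-1b (4.97% of all genes), with Acta2 1.97-fold and Tagln 1.88-fold lower. Their summed intensity was 8428, 27069, 4507 and 19871 with IL-1b, its vehicle, PDGF-DD and its vehicle. Of 5 fibroblast and adventitia markers 3 had values at least 2-fold above the vehicle with IL-1b (Dpt, at least 45.9-fold, Pdgfra, 4.48-fold, and Lum, 2.92-fold; 6.15% of all genes), and all 5 were above the floor there. Set against the PDGF-DD vehicle, the IL-1b array passed the 2-fold rule upward for Dpt (19.1-fold), Lum (5.91-fold) and Dcn (at least 2.86-fold; 5.44% of all genes). Pdgfra and Pi16, 1.65-fold and 1.67-fold above that vehicle, did not pass. The summed intensity of these 5 was 7845, 2288, 652 and 1363 on the same arrays, most of it Lum (6041, 2067, 372 and 1022). Between PDGF-DD and its vehicle the list was mixed. Lum was 2.75-fold, Pdgfra 1.63-fold and Pi16 1.02-fold lower with PDGF-DD, Dpt was 1.55-fold higher, and Dcn was under the floor on both. The vehicles differed in these lists too. Relative to the IL-1b vehicle array, Myh11 and Lmod1 were 2.64-fold and 2.07-fold lower on the PDGF-DD vehicle array (2 of 6 markers, 4.67% of all genes). Dpt (at least 2.40-fold) and Pdgfra (2.71-fold) were higher there (5.79% of all genes). Lum (2.02-fold) and Dcn (at least 2.23-fold) were lower. The leukocyte and macrophage list summed to 1455, 1197, 1189 and 1284, most of it Cd14 (1333, 1121, 1117 and 1220), with 3 of 8 markers above the floor with IL-1b and 1 of 8 on each other array. Their part in the chemokine values was not tested.

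The vehicle arrays, which received no factor, also differed in this family. On the PDGF-DD vehicle array 4 members were at least 2-fold higher than on the IL-1b vehicle array (5.79% of all 10389 genes compared) and 0 were lower (4.67%), with a median log2 ratio of 1.28 over 7 members and -0.05 over all genes. Cxcl3, Cxcl6 and Cxcl10 were compared through the PDGF-DD vehicle array alone and so could only be higher there. The median is the bound of Cxcl10. Cxcl1 was 12.5-fold higher there, the 13th highest log2 ratio of all genes (3.64). Cxcl16 was 4.02-fold higher, and Cxcl3 and Cxcl10, which were at or under the floor on the IL-1b vehicle array, at least 2.71-fold and at least 2.43-fold higher. With the floor at the 50th percentile the log2 ratios of Cxcl3 and Cxcl10 were 0.51 and 0.35, which left 2 of the 4 members past the rule. Cxcl6, also at the floor there, was at least 1.53-fold higher, and Cxcl12 and Cxcl13 were 1.12-fold higher and 1.09-fold lower. The vehicles differ in composition, and the difference cannot be told apart from one between cultures or arrays.

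The IL-1b log2 ratio minus the PDGF-DD log2 ratio, each against its own vehicle, was at least 1 in 6 members (8.3% of all 10885 genes) and at most -1 in 1 (6.7%), with a median of 4.02 over 9 members and -0.01 over all genes. It was 7.73 for Cxcl6, 7.03 for Cxcl2, 5.47 for Cxcl3, 4.86 for Cxcl1, 4.02 for Cxcl16 and 1.35 for Cxcl12. The first 3 of these include at least 1 array at the floor. Cxcl2 and Cxcl11 were above the floor on the IL-1b array alone and so could only be higher. The value of Cxcl2 is thus its IL-1b bound. Cxcl6 was above the floor on the IL-1b and PDGF-DD vehicle arrays alone, and its difference could likewise only be positive. For Cxcl13, lower with both factors, the difference was -2.16. The direct ratio of the IL-1b array to the PDGF-DD array put the same 6 members at least 2-fold higher (8.68% of 10508 genes) and 2 lower (7.09%). The 6 were higher by 2.33-fold for Cxcl1, 2.27-fold for Cxcl12, 4.02-fold for Cxcl16, 16.3-fold for Cxcl3 and at least 130-fold for Cxcl2 and 139-fold for Cxcl6. Cxcl13 was 4.10-fold lower and Cxcl10 at least 3.56-fold lower with IL-1b than with PDGF-DD. In this direct ratio Cxcl2, Cxcl6 and Cxcl11 were compared through the IL-1b array alone and could only be higher. Cxcl10 was compared through the PDGF-DD array alone and could only be lower.

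**Figure D4:**
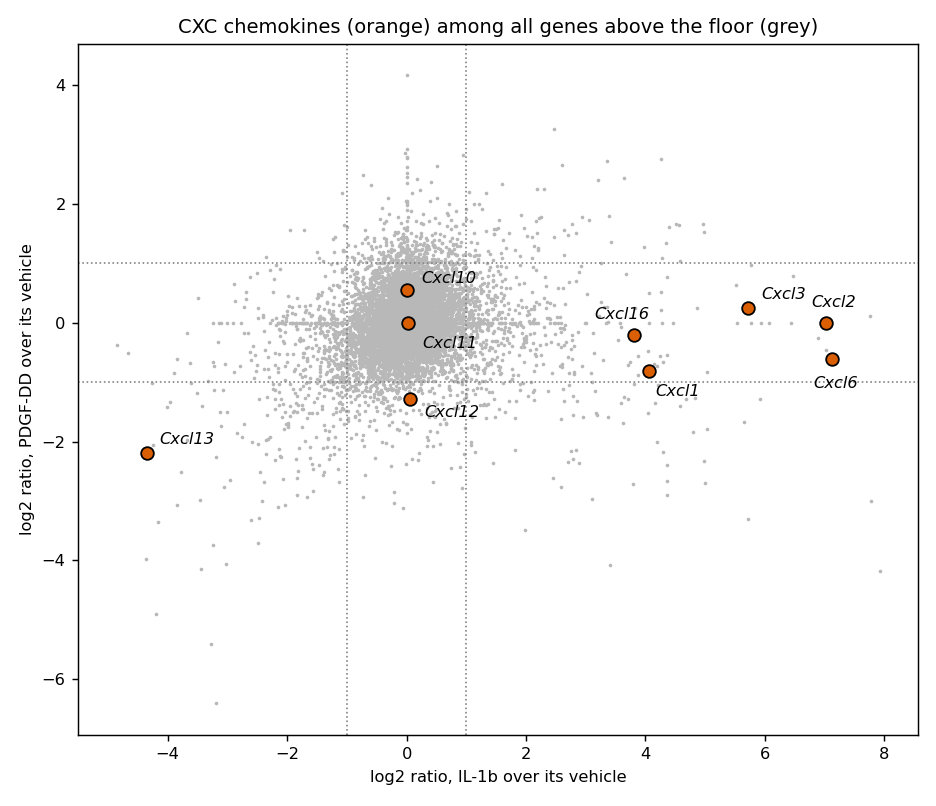
Log2 ratio of IL-1b over its vehicle (horizontal) against that of PDGF-DD over its vehicle (vertical) for each of 10885 genes above the floor on at least 1 array (grey) and for 9 CXC chemokines (orange); a gene at or under the floor on both arrays of a pair is drawn at 0, and dotted lines mark 2-fold. Cxcl13 lies at lower values on both axes, Cxcl12 is lower on the PDGF-DD axis alone, and Cxcl1, Cxcl3 and Cxcl16, right of 3 on the horizontal axis, lie within 2-fold on the vertical one; Cxcl2 has no PDGF-DD ratio and that of Cxcl6 is a bound.

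Among the receptors of these chemokines 0 of 3 compared genes passed the 2-fold rule between IL-1b and its vehicle (6.15% of all genes were higher and 5.42% lower). Between PDGF-DD and its vehicle 0 of 2 did (4.24% and 4.67%). Counts of 0 among so few genes do not set these receptors apart from all genes. Of 7 receptor genes on the array, Cxcr1, Cxcr2, Cxcr3 and Ackr1 were at or under the floor on all 4 arrays, and Cxcr4, the signalling receptor of Cxcl12, reached 29.2 with IL-1b and was under the floor elsewhere. Ackr3, an atypical receptor that takes up Cxcl12 and Cxcl11, was present on every array, at 2414 with IL-1b, 1657 with its vehicle, 1103 with PDGF-DD and 1556 with the PDGF-DD vehicle. It was 1.46-fold higher with IL-1b and 1.41-fold lower with PDGF-DD, and so within 2-fold of the vehicle in both pairs. The receptor of Cxcl13, Cxcr5, lay between 96.7, with the IL-1b vehicle, and 175.4, with the PDGF-DD vehicle. The family genes Cxcl14, Pf4 and Ppbp were at or under the floor on all arrays.

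Among NF-kappaB subunits and their regulators, 5 of 9 genes exceeded their IL-1b vehicle value by 2-fold or more with IL-1b and 0 were lower (6.15% and 5.42% of all genes), and the median log2 ratio was 1.22, beside 0.02 over all genes. Bcl3, a nuclear IkB protein, was at least 6.83-fold higher, the inhibitor Nfkbia 6.58-fold, Nfkbiz, a nuclear IkB protein that acts at a subset of NF-kappaB targets, 6.24-fold, and Nfkbib 2.71-fold. Against the PDGF-DD vehicle 4 of 9 were higher and 0 lower (5.44% and 4.97% of all genes), with a median of 0.95. The genes were not all the same. Nfkb2, 2.32-fold higher against the IL-1b vehicle, and Nfkbib fell to 1.65-fold and 1.93-fold. Tnfaip3, 1.03-fold higher against the IL-1b vehicle, entered at 3.29-fold. Between the vehicles 4 of the 9 passed the 2-fold rule (5.79% of all genes were higher with the PDGF-DD vehicle and 4.67% lower). With that vehicle Nfkbia (2.35-fold), Nfkbiz (2.50-fold) and Bcl3 (at least 2.56-fold) were higher and Tnfaip3 (3.21-fold) was lower. With PDGF-DD against its vehicle 0 of 9 were higher and 1 was lower, Nfkb2, at 2.03-fold (4.24% and 4.67% of all genes), with a median of -0.61.

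Interferon signalling genes gave 3 of 12 compared members higher with IL-1b, Jak2 (3.90-fold), Ifngr1 (2.25-fold) and Ifngr2 (2.10-fold), where 6.15% of all genes were, and the list's median log2 ratio was 0.31, beside 0.02 over all genes. With the PDGF-DD vehicle as comparison 0 of 12 were higher or lower by 2-fold (5.44% and 4.97% of all genes). The same held for PDGF-DD against its vehicle (4.24% and 4.67%). The interferon genes Ifnb1 and Ifng were at or under the floor on all 4 arrays.

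Of 8 genes that set the decay or stability of chemokine transcripts, 2 were 2-fold or more higher with IL-1b and 0 lower (6.15% and 5.42% of all genes): Zc3h12a, an RNase that degrades inflammatory transcripts, by 19.6-fold, and Traf3ip2, the adaptor through which the IL-17 receptor stabilises chemokine transcripts, by 2.13-fold. The Zc3h12a intensity was 1876 with IL-1b, 95.5 with its vehicle, 177 with PDGF-DD and 281 with the PDGF-DD vehicle. Against the PDGF-DD vehicle 1 of 8 was higher with IL-1b (5.44% of all genes), since Zc3h12a was then 6.67-fold and Traf3ip2 1.88-fold higher. Zfp36l1, which promotes decay of AU-rich transcripts, was 2.69-fold lower with PDGF-DD. It was the only 1 of the 8 beyond 2-fold there (4.24% of all genes were higher and 4.67% lower). Against the IL-1b vehicle Zfp36l1 was 1.55-fold lower with PDGF-DD, and 0 of the 8 passed (9.64% of all genes were higher and 10.3% lower). Among 6 proteases that shed or trim chemokines, Mmp2, which cleaves Cxcl12, was 4.01-fold higher with IL-1b. It alone passed the 2-fold rule (6.15% of all genes were higher and 5.42% lower), and the ratios of Mmp9 and Dpp4 are bounds against the floor. Adam10, which sheds Cxcl16, was 1.51-fold higher with IL-1b and 1.72-fold higher with PDGF-DD, each against its own vehicle. Against the PDGF-DD vehicle it was 1.56-fold lower with IL-1b, so its direction turned with the vehicle, and the PDGF-DD vehicle array was 2.36-fold above the IL-1b vehicle array.

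The genes closest in pattern to each member were found by the Euclidean distance between log2 profiles centred on their mean, over 4 arrays and 10785 other named genes. For Cxcl1 these were Ccl2 (distance 0.34), Bst1 (0.36) and Ccl7 (0.50); Ccl2 and Ccl7 encode chemokines of the CC family. Ccl2 read 12106 with IL-1b, 638.0 with its vehicle, 6317 with PDGF-DD and 9303 with the PDGF-DD vehicle, so that the IL-1b vehicle array was again the low one. Cxcl2 and Cxcl6 both had Wfdc18 (0.28 and 0.31) nearest, followed by the chemokine Ccl5 (0.50) and then Cxcl6 (0.51) for Cxcl2, and by Cxcl2 (0.51) and then Ccl5 (0.64) for Cxcl6. For the distances too, values under the floor were set to it. Cxcl2 and Ccl5 were under the floor on every array but IL-1b, so their profiles agree there by construction. Cxcl6 and Wfdc18 were both under it with the IL-1b vehicle and with PDGF-DD, where the same holds. For Cxcl3 the nearest was Dpt, the matrix protein dermatopontin (0.32), and for Cxcl16 they were Gsap (0.36), Irak3, which restrains signalling from IL-1 receptors (0.41), and the nucleotide receptor P2ry2 (0.44). Cxcl3 and Dpt were both under the floor on the IL-1b vehicle array. Gsap read 2.52 on that array, so its distance to Cxcl16 depends on the floor.

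Cxcl10 had other neighbours: E2f7, a repressor of the E2F family active in the cell cycle (0.13), Gins4, a subunit of the replicative helicase (0.15), and Zdhhc2 (0.19). Cxcl10 and E2f7 were both under the floor on the IL-1b and IL-1b vehicle arrays, so their profiles agree there by construction. Gins4 read 123.4 with IL-1b, 129.0 with its vehicle, 506.5 with PDGF-DD and 320.0 with the PDGF-DD vehicle. Cxcl12 lay nearest to Trim34 (0.14), Tmem121b (0.15) and C1qtnf5 (0.15). Tmem121b read 6.87 with PDGF-DD, under the floor, so its distance depends on the floor. The profile of Cxcl13 had no close match: Lmcd1, a LIM domain protein of muscle, was at 1.03, Casq2, the calcium-binding calsequestrin of muscle, at 1.18, and Sorbs2, an adaptor of the actin cytoskeleton, at 1.47. Casq2 read 52.4 with IL-1b and 409.1 with its vehicle, and 76.3 with PDGF-DD and 478.8 with the PDGF-DD vehicle, which shows the same side for each array as Cxcl13. With 4 arrays such a distance is a description only.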

How the data were processed

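Total RNA of 4 cultures was labelled and hybridised to 1 Affymetrix rat array each. The authors deposited linear probe set intensity values; MAS5 is the tool the submitters' processing notes name, its version is not given in the sources used here, and all 4 columns have the same median, 53.3. Detection calls were not used here. Arrays were matched to groups by their titles. Each array was scaled to a common mean after trimming 2% at each end (factors 0.951 to 1.03), and values under the 40th percentile (28.1) were set to that floor. Of 31099 probe sets 20832 had 1 gene symbol in the 2016 annotation, and each of 14218 genes was represented by its brightest probe set (mean log2 intensity). Ratios were described by a 2-fold rule with no test. The number of arrays limits the precision. The members, lists and settings were chosen with earlier results of these data known. All members were named. Genes of the lists were named mostly by size of ratio, and further markers, receptors and regulators were named as well. The 3 nearest profiles were named, except that Cxcl3 was given only its nearest and Cxcl11 none. Steps were tested on simulated data. Promoters are from RefSeq (GRCr8), and no coordinate of the array was used. Alternatives were the scaling, the floor, the probe set rule and the vehicle. Python 3.11.15, numpy 2.4.6 and pandas 2.3.3 were used.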

Additional observations from a re-analysis of the deposited data

How the results depend on the processing

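The alternatives were the values as deposited, quantile normalization, the floor at the 30th or 50th percentile, no floor, the mean of all probe sets of a gene, and the other vehicle or, for the difference between factors, the direct ratio of the IL-1b and PDGF-DD arrays. Genes at the floor on both arrays of a comparison have no ratio to follow and were left out of it. The same probe set stood for each gene except under the mean. Only the members were followed through all of these alternatives. Of the member ratios so followed, none past 2-fold changed sign, but some within 2-fold did and then passed it. Against the IL-1b vehicle the PDGF-DD log2 ratios of Cxcl1 and Cxcl16 were 2.84 and 1.81, in place of -0.80 and -0.20. The difference between factors for Cxcl10, -0.55, was 1.22 without a floor and -1.83 by the direct ratio, so it has no settled direction. Without a floor, 7 members in place of 5 were higher with IL-1b (Cxcl10 and Cxcl11 added), and Cxcl9 was added to the lower members, which made 2 in place of 1 with IL-1b, 1 in place of 0 between the vehicles and 2 in place of 1 for the difference between factors. With the PDGF-DD vehicle, members lower with IL-1b numbered 2 in place of 1, and with the IL-1b vehicle, members higher with PDGF-DD numbered 4 in place of 0. With the floor at the 50th percentile, 2 members in place of 4 were higher on the PDGF-DD vehicle than on the IL-1b vehicle array, since Cxcl3 and Cxcl10 then lie closer to the floor. The direct ratio of IL-1b to PDGF-DD gave 2 lower members in place of 1. With the mean of all probe sets, Cxcl3 had a log2 ratio of 0.72 between the vehicles, short of the rule. All other counts of members stayed within 1.5 times. Values under the floor have no order, and the depth of signal over background there allows no fold for Cxcl9 or, with IL-1b against its vehicle, Cxcl10, and only a bound for Cxcl11. No paired analysis was possible because each group is 1 array.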
